A study of Mus musculus with 8 samples.

Results

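The 9 complement genes described here are the rows of the deposited expression table named C1qa, C1qb, C1qc, C1ra, C2, C3, C4b, Cfb and C3ar1, out of 25378 genes in all. They were measured by bulk RNA sequencing of lesional back skin from 8 female wild type C57BL/6 mice aged 6 weeks. All 8 received 5 nmol of MC903 (calcipotriol, an analog of vitamin D used to induce atopic dermatitis-like lesions) on the back for 10 days. In 4 mice, the short-chain fatty acid propionic acid was applied at 1 mM, 1 h after MC903, and the other 4 received a control application that the labels describe no further. Skin was taken on day 11, and no group without MC903 was analysed here. The labels call the samples biological replicates, taken here to mean separate mice.

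Complement is a cascade of blood and tissue proteins that tags particles and cells for uptake and recruits leukocytes. In the classical pathway C1q recognises its target and the proteases C1r and C1s cut C4 and C2, whereas in the alternative pathway factor B takes the place of C2. Both pathways converge on cleavage of C3, which releases the fragment C3a, the ligand of the receptor C3aR1. The liver supplies most circulating complement, while macrophages are a major source of C1q, and keratinocytes and fibroblasts can make several of the other components in skin.

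Values are FPKM, which scale fragments by gene length and by depth, so levels of different genes can be set side by side. Whole reads recovered from the FPKM steps came to 39050643 to 40209177 per library. The 9 genes had between 708 and 66331 reads in a library, which leaves counting error well below the spread between mice. Keratinocyte keratin Krt14 was abundant in every library (3405 to 4741 FPKM with propionic acid and 3175 to 5619 in controls). The summed level of the 4 measured hepatocyte genes was 1.44 to 2.24 FPKM with propionic acid and 0.868 to 1.45 FPKM in controls. Control replicates 1 and 3 had the 2 highest scores on the first principal component of all tested genes. Their scores were 31.8 and 26.7, against -26.0 to 11.8 in the other 6 libraries. Propionic acid replicate 1, at -26.0, lay about as far from 0 on the other side. Fold changes of the 9 genes are also given without control replicates 1 and 3, while those of other single genes are not. Control replicate 1 had the highest value of all 9 genes, so leaving it out raises each of their fold changes. In bulk tissue, fewer cells of a type and less RNA per cell cannot be told apart.

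All 9 genes passed the filter of 1 FPKM in at least 4 libraries, and none passed an adjusted p of 0.05 in the limma fit across 12598 genes, where 0% of all genes did. In 7 of the 9 the log2 fold change of propionic acid over control was negative, against 48.3% of all genes tested. The median log2 fold change was -0.38 over the 9 genes and 0.01 over all genes tested. At an unadjusted p under 0.05 there was 1 lower member, C3ar1, and no higher one, where 2.21% of all genes were lower and 4.07% higher. With 1 mouse left out, between 0 and 4 members had an unadjusted p under 0.05: there were 0 when propionic acid replicate 2, control replicate 1 or control replicate 3 was dropped, 4 when propionic acid replicate 4 was, and 3 when control replicate 4 was. In none of the 9 were the groups separate, which held for 1.1% of all genes in the lower and 2.06% in the higher direction. Without both control replicates 1 and 3, only 4 of the 9 (the C1q genes and C3ar1) had a negative log2 fold change, and the median was 0.09.

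Averaged over the 8 mice, the order of levels was C1qa (413 ± 113 FPKM), C1qb (366 ± 104), C1qc (355 ± 105), C3 (197 ± 61.4), C4b (77.8 ± 23.5), C1ra (39.2 ± 9.67), Cfb (20.9 ± 11.8), C3ar1 (10.7 ± 3.71) and C2 (9.79 ± 2.55; SD, n = 8 for each). The ranges of all neighbours in this order overlapped over the 8 mice. Within single libraries the order was nevertheless steady: each gene was above the next in all 8 libraries, except C1qb over C1qc in 7 and C3ar1 over C2 in 4. By mean level the C1q genes ranked 193, 217 and 226 of the tested genes, within the top 1.79%.

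**Figure D1:**
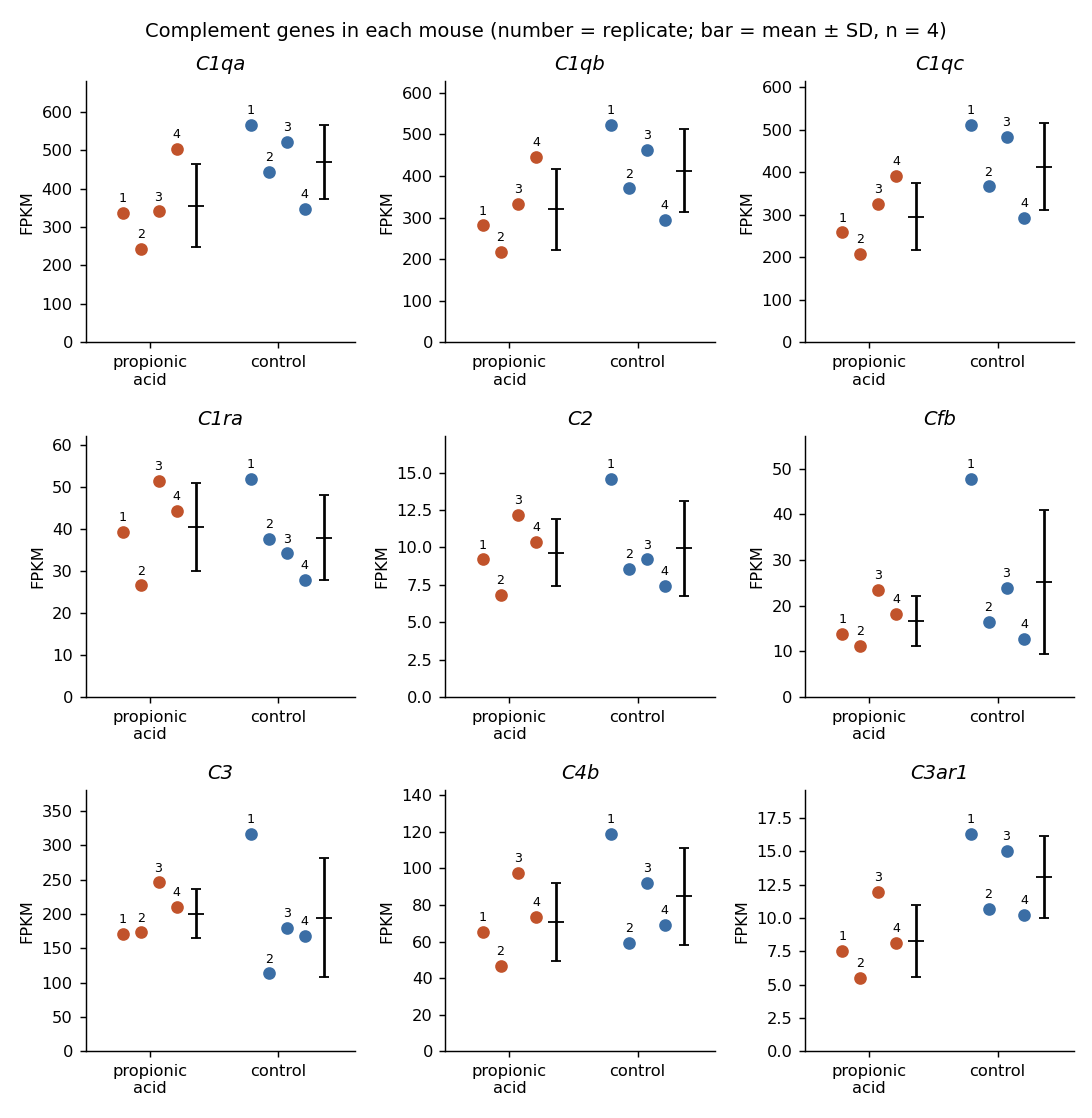
FPKM of the 9 complement genes in each mouse (y axes, FPKM, each from 0), with propionic acid left and control right. Points are mice numbered by replicate, and bars are the mean ± SD (n = 4). Control replicate 1 is the highest point in all 9 panels, and the groups overlap in each.

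C1qa, C1qb and C1qc encode the A, B and C chains that assemble into C1q, the recognition molecule of the classical pathway. C1qa had 336, 242, 340.4 and 504 FPKM in propionic acid replicates 1 to 4, against 566, 444, 522 and 347 FPKM in control replicates 1 to 4. Of the propionic acid mice, 3 lay below every control, and replicate 4 lay among the controls. C1qb had 281, 218, 332 and 446 FPKM with propionic acid, against 523, 369.9, 462 and 295 FPKM in controls. C1qc had 259, 209, 326 and 391 FPKM with propionic acid, against 512, 367, 482 and 292 FPKM in controls. For both genes 2 propionic acid mice lay below every control.

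The group means of C1qa were 356 ± 109 FPKM with propionic acid and 469.7 ± 95.9 FPKM in controls (SD, n = 4 each), and the log2 fold change was -0.43 (standard error, SE, 0.23). For C1qb they were 319 ± 96.2 and 413 ± 100.5 FPKM in the same order, with a log2 fold change of -0.38 (SE 0.25). For C1qc they were 296 ± 79.2 FPKM with propionic acid and 413 ± 102 FPKM in controls, with a log2 fold change of -0.48 (SE 0.24). The limma adjusted p values were 0.828, 0.848 and 0.815 for C1qa, C1qb and C1qc. The 95% confidence intervals of the log2 fold change ran from -0.95 to 0.10 for C1qa, -0.94 to 0.17 for C1qb and -1.02 to 0.05 for C1qc. Changes within these bounds are not excluded. Without propionic acid replicate 2 the log2 fold change was -0.26 for C1qa, -0.22 for C1qb and -0.33 for C1qc. Without control replicates 1 and 3 it was -0.19 for C1qa, -0.10 for C1qb and -0.18 for C1qc.

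The 3 chains kept close to a fixed proportion to one another. C1qa over C1qb was 1.11 ± 0.0705 with propionic acid and 1.15 ± 0.0525 in controls (SD, n = 4 each), an exact 2-sided permutation p of 0.514. C1qa over C1qc was 1.198 ± 0.120 with propionic acid and 1.147 ± 0.0627 in controls (exact permutation p = 0.457). C1qb over C1qc was 1.09, 1.05, 1.02 and 1.14 with propionic acid, against 1.02, 1.01, 0.958 and 1.01 in controls. Its values were close to 1 in every library, and its exact permutation p was 0.0571, with an adjusted p of 0.171 over the 6 ratios compared. Over the 8 mice C1qb and C1qc had a Pearson r of 0.985 (exact permutation p = 2.48e-05, the smallest the permutations allow) and a Spearman rho of 1.0 (p = 4.96e-05). Adjusted over the 36 pairs of members these p values were 0.000893 and 0.00179, and r was 0.961 without the 2 mice farthest from the C1qb median.

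In GRCm38 the 3 genes lie side by side on the minus strand of chromosome 4, C1qb at 136880129 to 136886187, C1qc at 136889804 to 136893065 and C1qa at 136895917 to 136898803. The gaps are 3616 bases between C1qb and C1qc and 2851 bases between C1qc and C1qa. All are protein-coding, and no other annotated gene overlaps them. Sequence before the start of C1qb and C1qc, the pair with the highest correlation, is shown from the RefSeq windows on GRCm38.p6, 250 bases of C1qb at chr4:136886201-136886450 and 99 bases of C1qc at chr4:136893066-136893164, where the other 151 bases of the window lie inside the annotated gene, both read 5′ to 3′ on the minus strand.
C1qb: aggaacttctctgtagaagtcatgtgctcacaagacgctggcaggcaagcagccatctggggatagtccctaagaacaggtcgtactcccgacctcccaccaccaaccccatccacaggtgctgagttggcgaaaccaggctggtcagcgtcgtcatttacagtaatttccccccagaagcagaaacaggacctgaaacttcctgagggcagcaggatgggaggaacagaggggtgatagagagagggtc
C1qc: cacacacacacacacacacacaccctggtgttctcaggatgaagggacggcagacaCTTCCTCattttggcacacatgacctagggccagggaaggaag
Capitals mark a match to GAGGAAG, a core of the site bound by the myeloid factor PU.1, on either strand. C1qc has 1 match, which begins at position -194 counted from the RefSeq start, and the C1qb window has none. Of 32851 RefSeq promoter windows, 10.6% hold this motif.

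Macrophage markers are given beside the C1q genes and C3ar1, which macrophages are known to express. All 9 reported (Adgre1, Cd68, Csf1r, Mrc1, Cd163, Fcgr1, Mertk, Cd14 and Aif1) had a negative log2 fold change, with a median of -0.33. At an unadjusted p under 0.05 there were 3 (Mrc1, Cd163 and Mertk), where 2.21% of all genes were lower at that p and 48.3% had a negative log2 fold change, and none passed adjustment. Their summed level was 260.2 to 420.4 FPKM with propionic acid and 333 to 709 FPKM in controls, highest in control replicates 1 and 3. None of the 9 was at 0 in any library. Their part in the complement values was not tested.

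C1ra, C2 and Cfb encode serine proteases: C1ra is the zymogen that starts the classical cascade within C1, C2 the protease of the classical C3 convertase, and factor B its counterpart in the alternative pathway. C1ra had 39.4, 26.6, 51.5 and 44.4 FPKM in propionic acid replicates 1 to 4, against 52.0, 37.7, 34.2 and 27.9 FPKM in control replicates 1 to 4. The ranges nearly coincide, and the log2 fold change was 0.09 (SE 0.23, limma adjusted p = 0.953). C2 had 9.20, 6.82, 12.2 and 10.4 FPKM with propionic acid, against 14.6, 8.56, 9.19 and 7.42 FPKM in controls. Its log2 fold change was -0.02 (SE 0.22, limma adjusted p = 0.988), with a 95% confidence interval of -0.51 to 0.46. The direction of C1ra turned without propionic acid replicate 3 (-0.04) or control replicate 4 (-0.045), and that of C2 without propionic acid replicate 2 (0.115) or control replicate 1 (0.159).

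Cfb had the highest coefficient of variation (SD over mean) of the 9 genes in controls, while with propionic acid that of C3ar1 was as high. Cfb had 13.8, 11.1, 23.5 and 18.2 FPKM with propionic acid, against 47.7, 16.5, 23.9 and 12.8 FPKM in controls. The coefficient of variation of Cfb was 32.5% with propionic acid and 62.3% in controls, against 32.7% for C3ar1 with propionic acid. In controls replicate 1 was the highest and replicate 3 the next. The means were 16.7 ± 5.41 FPKM with propionic acid and 25.2 ± 15.7 FPKM in controls, with a log2 fold change of -0.45 (SE 0.37, limma adjusted p = 0.878). It was -0.28 without propionic acid replicate 2, -0.09 without control replicate 1 and 0.14 without control replicates 1 and 3.

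Cfb and C2 are neighbours on the minus strand of chromosome 17, Cfb at 34856374 to 34862518 and C2 at 34862604 to 34898265, with 85 bases between them. A further annotated gene, Gm20547, overlaps both on the same strand, and Zbtb12 overlaps C2 on the other strand, so some reads of these genes could have been shared in counting. C1ra, on the plus strand of chromosome 6 at 124512405 to 124523443, has a close copy, C1rb, and its reads could likewise have been split. Cfb over C2 was 1.503, 1.63, 1.94 and 1.75 with propionic acid, against 3.28, 1.93, 2.60 and 1.72 in controls. Controls 1 and 3 had the highest ratios, the groups overlapped, and the exact permutation p was 0.143 (adjusted p = 0.214).

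C3 and C4b encode the large components that, once cut, bind covalently to target surfaces through a thioester. C3 had 171, 173, 246 and 211 FPKM in propionic acid replicates 1 to 4, against 317, 113, 179 and 168 FPKM in control replicates 1 to 4. The controls held both the highest and the lowest value, and the propionic acid mice lay between them. The means were 200.2 ± 35.6 FPKM with propionic acid and 195 ± 86.7 FPKM in controls (SD, n = 4 each), with a log2 fold change of 0.12 (SE 0.28, limma adjusted p = 0.95). Leaving out control replicate 1 gave 0.39, leaving out control replicate 2 gave -0.10, and leaving out control replicates 1 and 3 gave 0.51. C4b had 65.1, 46.5, 97.6 and 73.7 FPKM with propionic acid, against 119, 59.5, 91.9 and 69.2 FPKM in controls, and its log2 fold change was -0.26 (SE 0.26, limma adjusted p = 0.889). That of C4b was -0.08 without propionic acid replicate 2, -0.43 without propionic acid replicate 3, -0.08 without control replicate 1, -0.41 when control replicate 2 was dropped and 0.09 when control replicates 1 and 3 were. The near-identical copy of C4b, C4a, was not matched by symbol in the table and is not analysed here, so the C4b values are uncertain to that extent.

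C3 over C4b was 2.62, 3.72, 2.52 and 2.86 with propionic acid, against 2.66, 1.91, 1.95 and 2.43 in controls. The groups overlapped through control replicate 1, and the exact permutation p was 0.0857 (adjusted p = 0.171). C3 lies on the minus strand of chromosome 17 at 57203970 to 57228136, and C4b on the same strand of that chromosome at 34728380 to 34743882.

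C3ar1 encodes the G protein-coupled receptor of C3a, found on macrophages and other myeloid cells. It had 7.51, 5.50, 12.0 and 8.16 FPKM in propionic acid replicates 1 to 4, against 16.3, 10.7, 15.0 and 10.2 FPKM in control replicates 1 to 4. Of the propionic acid mice, 3 lay below every control, and replicate 3 lay among them. The means were 8.29 ± 2.71 FPKM with propionic acid and 13.1 ± 3.06 FPKM in controls (SD, n = 4 each). The log2 fold change was -0.62 (SE 0.22), with an unadjusted 95% confidence interval of -1.12 to -0.12. The unadjusted limma p was 0.0207 and the adjusted p 0.725, and the exact permutation p was 0.0857, where 0.0286 is the smallest that 4 against 4 allows. The unadjusted limma p of C3ar1 was 0.0571 without propionic acid replicate 2. Dropping control replicate 1 gave 0.0562, dropping control replicate 3 gave 0.0564, and dropping both gave 0.201 with a log2 fold change of -0.35.

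The ratio of the receptor to the precursor of its ligand, C3ar1 over C3, was 0.0440, 0.0318, 0.0487 and 0.0388 with propionic acid, against 0.0515, 0.0944, 0.0838 and 0.0608 in controls. The ratio was lower in all 4 propionic acid mice than in any control. The means were 0.0408 ± 0.00728 with propionic acid and 0.0726 ± 0.0199 in controls, a difference of -0.74 on the log2(FPKM + 1) scale. The exact 2-sided permutation p of 0.0286 is the smallest possible; adjusted over the 6 ratios it was 0.171, so the difference did not pass. Leaving out each mouse in turn gave differences of -0.90 to -0.60.

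C3ar1 lies on the minus strand of chromosome 6 at 122847138 to 122856161, with no overlapping annotated gene. Sequence before the start of both genes of this ratio is shown from RefSeq on GRCm38.p6, 246 bases of C3ar1 at chr6:122856162-122856407 and 250 bases of C3 at chr17:57228137-57228386, read 5′ to 3′ on the minus strand.
C3ar1: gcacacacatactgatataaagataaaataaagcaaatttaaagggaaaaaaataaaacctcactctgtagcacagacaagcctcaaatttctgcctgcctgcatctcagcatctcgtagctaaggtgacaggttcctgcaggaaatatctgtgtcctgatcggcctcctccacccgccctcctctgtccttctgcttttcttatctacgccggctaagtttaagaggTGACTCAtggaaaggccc
C3: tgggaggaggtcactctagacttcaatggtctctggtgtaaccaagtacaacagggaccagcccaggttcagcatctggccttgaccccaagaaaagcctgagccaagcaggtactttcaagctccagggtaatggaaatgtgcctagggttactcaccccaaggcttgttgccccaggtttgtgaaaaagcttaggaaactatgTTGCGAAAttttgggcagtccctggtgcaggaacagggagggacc
In C3ar1 the capitals mark a match to TGANTCA, the motif of the AP-1 family, which begins at position -22. Positions are counted from the RefSeq start, and the last 4 bases before that of C3ar1 lie inside the annotated gene and are not shown. In C3 they mark a match to TTGCNNAA, a form of the motif of the C/EBP family, which begins at position -45. These motifs stand in 6.75% and 9.56% of all RefSeq promoter windows of this length. Both strands were searched, no matches overlapped, and TTCNNNGAA (STAT, 7.02% of windows) had no match in the full 250-base windows of the 5 members whose windows were used here, C1qb, C1qc, C1ra, C3 and C3ar1.

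**Figure D2:**
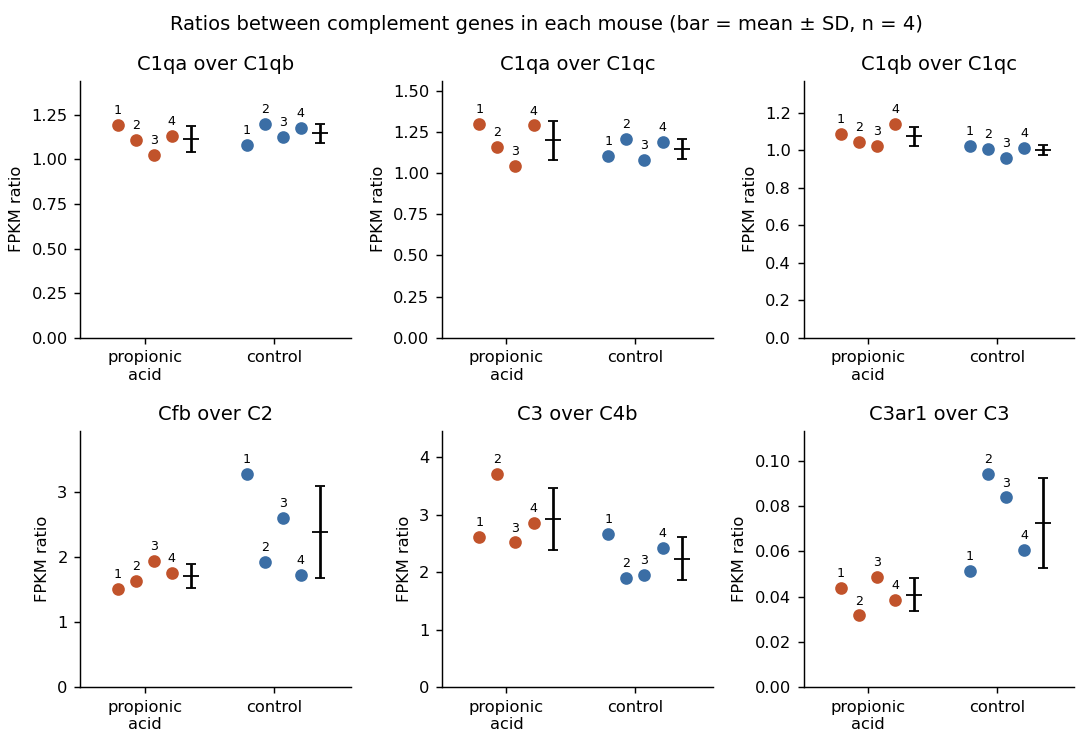
Ratio of FPKM between 2 complement genes in each mouse (y axes, each from 0), with propionic acid left and control right. Points are mice numbered by replicate, and bars are the mean ± SD (n = 4). C3ar1 over C3 is below 0.05 in the 4 propionic acid mice and above it in the 4 controls, while the ratios among C1q chains lie between 0.958 and 1.3.

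The 9 genes tended to vary together over the 8 mice, also with the group means removed. Control replicate 1 had the highest value of all 8 libraries in 9 of 9 members, against 18.6% of all tested genes. Propionic acid replicate 2 had the lowest in 8 of 9, against 12.1% of all tested genes. With median-of-ratios scaling, control replicate 1 was highest in 6 members and control replicate 3 in the other 3, and propionic acid replicate 2 was still lowest in 8. All 36 pairs of members correlated positively over the 8 mice, with Pearson r between 0.28 and 0.98 and a median of 0.76. Exact permutation p values for Pearson r, adjusted over the 36 pairs, were under 0.05 in 14 pairs, and those for Spearman rho in 8. Pairs of other tested genes were not counted in this way, so whether such counts are particular to the 9 genes was not tested. Without control replicate 1 the count for Pearson r was 4. With the group means removed the median r was 0.81. With the group means kept, it was 0.46 without the 2 mice farthest from the median of the first gene of each pair, against 0.76 with all mice. Dropping the most extreme mice narrows the range of that gene, which by itself tends to lower r. How far the relation rests on those mice therefore cannot be read from this value.

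Outside the C1q chains, the closest pairs were C1ra with C2 (r = 0.948, rho = 0.976, exact permutation p = 0.000719 and 0.000397) and Cfb with C4b (r = 0.913, rho = 0.881, exact permutation p = 0.00117 and 0.00724). Without the 2 farthest mice r was 0.904 for C1ra with C2 and 0.832 for Cfb with C4b. The adjusted p values for r were 0.00647 and 0.00839, and for rho 0.00357 and 0.0326. C3 stood farthest from the C1q genes, with r = 0.283 and rho = 0.405 against C1qa (exact permutation p = 0.498 and 0.327, and -0.16 for r without the 2 farthest mice). With the group means removed, r of C3 was 0.441 against C1qa, 0.57 against C1qb and 0.588 against C1qc. After adjustment the p values for C3 against C1qa were 0.498 and 0.327 as well.

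**Figure D3:**
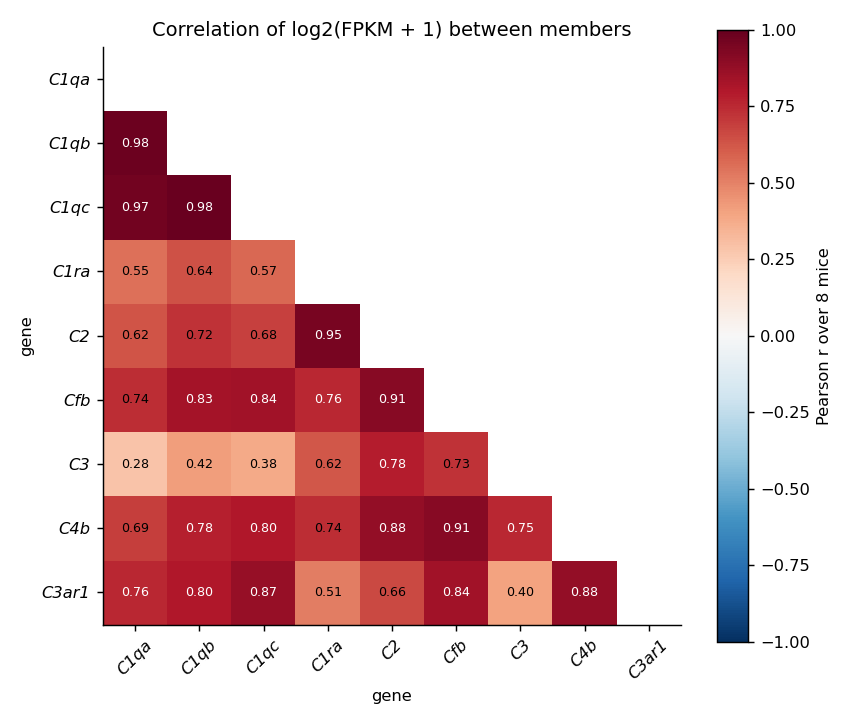
Pearson r of log2(FPKM + 1) over the 8 mice for each pair of the 9 genes (both axes list genes, colour runs from -1 to 1). The C1q chains form a block of 0.97 and above, and C3 against the C1q chains has values between 0.28 and 0.42.

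By pattern over the 8 mice, with group means removed, the tested genes outside the 9 with the highest Pearson r to the mean of the C1q chains were Fcer1g (0.99), Pf4 (0.99), Ctss (0.99), Usp14 (0.98) and Ncbp3 (0.98). For C3 they were Gja5 (0.99), Pdia6 (0.99), Donson (0.98), Arpc1b (0.98) and Dnajc10 (0.97). For Cfb they were Cyth4 (0.99), Gm5431 (0.99), Cxcr3 (0.99), Slc7a7 (0.99) and Gm21188 (0.99). These were selected as the highest of all tested genes, and no p is given.

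A list of 45 further complement genes gives the rest of the pathway. Of these, 41 were in the table and 24 passed the filter, 16 with a negative and 8 with a positive log2 fold change and a median of -0.05. None passed an adjusted p of 0.05, and at an unadjusted p under 0.05 there were 1 lower (C7) and 2 higher (Cd59a and Itgax), against 2.21% and 4.07% of all genes. The groups did not overlap in 1 lower gene (C7) and 1 higher gene (Cd59a) of the 24, against 1.1% and 2.06% of all genes.

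Among genes of initiation, 5 of 6 tested had a negative log2 fold change and 1 a positive one. C1s1, the protease partner of C1r, had 66.8 ± 17.8 FPKM with propionic acid and 62.8 ± 19.4 FPKM in controls. Fcna, a ficolin of macrophages that recognises sugars, had 17.3 ± 8.37 FPKM with propionic acid and 27.0 ± 11.6 FPKM in controls (limma adjusted p = 0.847). Colec12, a scavenger receptor collectin, had 17.8 ± 2.63 FPKM with propionic acid and 20.7 ± 4.23 FPKM in controls. C1rb had 5 to 20 reads in 7 libraries and 205 in control replicate 4, and did not pass the filter.

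In the alternative pathway, Cfd (factor D or adipsin, the protease that cuts factor B and a product of fat cells) was far above all members, at 1278 ± 488 FPKM with propionic acid and 950.3 ± 155 FPKM in controls (limma adjusted p = 0.874). All 5 adipocyte markers (Adipoq, Plin1, Cidec, Lep and Fabp4) had a positive log2 fold change in the same samples, 4 of them at an unadjusted p under 0.05 (4.07% of all genes were higher at that p), with a summed level of 839.9 to 1768 FPKM with propionic acid and 526 to 1034 FPKM in controls. None of the 5 was at 0 in any library, and their part in the Cfd values was not tested. Cfp (properdin, which stabilises the alternative convertase) had 60.9 ± 19.7 FPKM with propionic acid and 64.4 ± 30.03 FPKM in controls. Hc, which encodes C5, was at 0.0384 ± 0.0249 FPKM with propionic acid and 0.181 ± 0.150 FPKM in controls and did not pass the filter.

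Of the terminal components that build the membrane attack complex, C6 and C7 passed the filter. C7 had 1.29, 1.10, 2.67 and 1.37 FPKM in propionic acid replicates 1 to 4, against 5.65, 2.74, 8.61 and 2.97 FPKM in control replicates 1 to 4. All 4 propionic acid values lay below all controls, as in 1.1% of all genes, with propionic acid replicate 3 and control replicate 2 the closest. The log2 fold change was -1.13 (SE 0.31), with an unadjusted p of 0.00504 and a limma adjusted p of 0.488. C6 had 3.91 ± 1.83 FPKM with propionic acid and 8.74 ± 5.28 FPKM in controls, and these overlapped (limma adjusted p = 0.815). For both, control replicates 1 and 3 had the highest values. C8g was at 0.312 ± 0.162 FPKM with propionic acid and 0.233 ± 0.165 FPKM in controls and did not pass the filter.

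Of 8 tested regulators, 3 had a negative and 5 a positive log2 fold change. Cd59a, which blocks assembly of the membrane attack complex, had 8.24, 7.06, 6.96 and 7.88 FPKM in propionic acid replicates 1 to 4, against 5.52, 6.34, 4.84 and 6.61 FPKM in control replicates 1 to 4. The groups did not overlap, which held for 2.06% of all genes in the higher direction. The log2 fold change was 0.33 (SE 0.12), with an unadjusted limma p of 0.0208 and a limma adjusted p of 0.725. Serping1, the C1 inhibitor, had 269 ± 52.6 FPKM with propionic acid and 251 ± 49.3 FPKM in controls. C1qbp, a protein named for binding C1q, had 71.5 ± 9.74 FPKM with propionic acid and 71.9 ± 5.97 FPKM in controls, and Cr1l (Crry, a cell surface inhibitor of mouse convertases) had 38.2 ± 4.16 FPKM with propionic acid and 39.4 ± 3.28 FPKM in controls.

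Of 6 tested receptors besides C3ar1, 5 had a negative and 1 a positive log2 fold change. C5ar1, the receptor of C5a, had 10.6 ± 3.04 FPKM with propionic acid and 12.0 ± 2.34 FPKM in controls (limma adjusted p = 0.899). Itgb2, the shared beta chain of the iC3b receptors, had 24.1 ± 4.95 FPKM with propionic acid and 25.5 ± 10.2 FPKM in controls. Its partner Itgam had 12.5 ± 3.56 FPKM with propionic acid and 15.4 ± 9.09 FPKM in controls. Its other partner Itgax, also a marker of dendritic cells, had 8.32 ± 0.455 FPKM with propionic acid and 6.02 ± 2.01 FPKM in controls, with an unadjusted p of 0.048 and a limma adjusted p of 0.786. The 3 tested dendritic and Langerhans cell markers (Cd207, Cd209a and H2-Ab1) had positive log2 fold changes in the same samples, 2 of them at an unadjusted p under 0.05 (against 4.07% of all genes). The summed level of the 6 listed genes was 493 to 928 FPKM with propionic acid and 202 to 494 FPKM in controls. Most of this sum was H2-Ab1 alone, at 440 to 830 FPKM with propionic acid and 175 to 438 FPKM in controls. None of the 6 was at 0 in any library, and their part in the Itgax values was not tested.

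**Figure D4:**
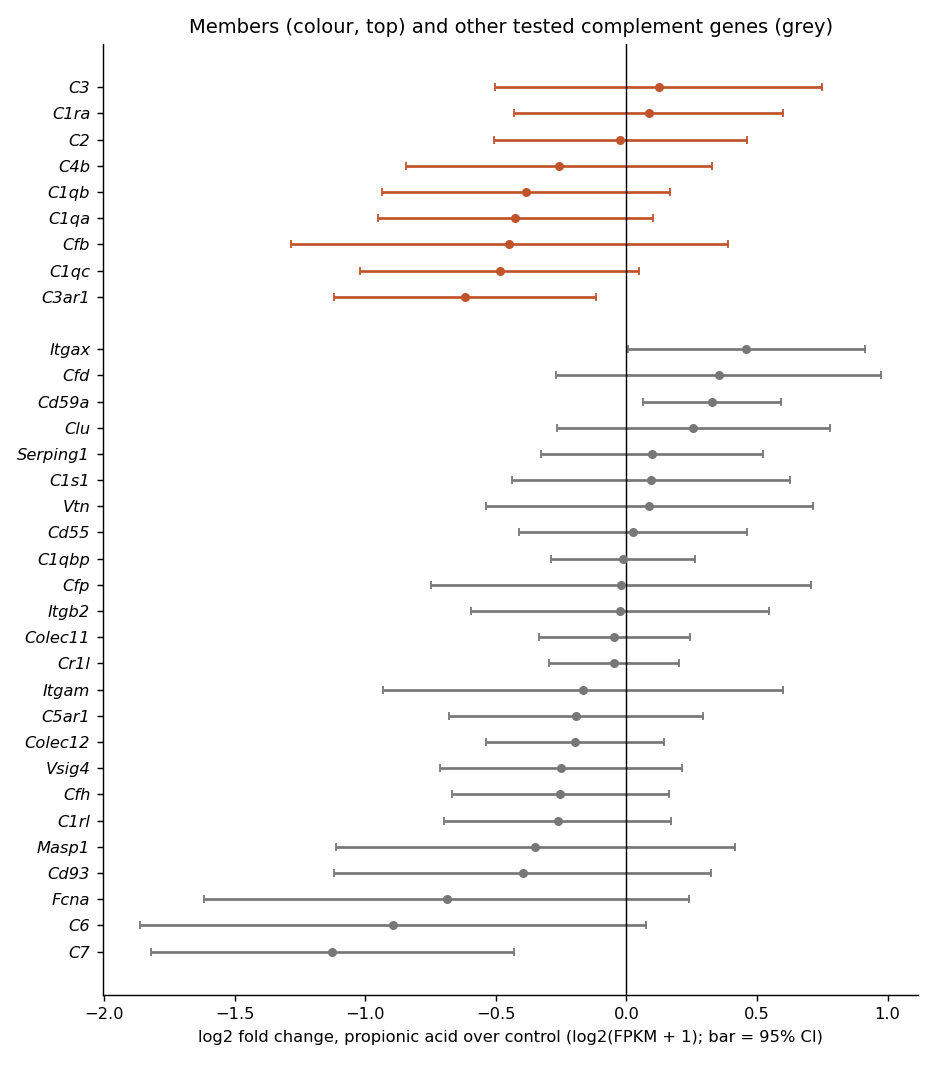
Log2 fold change of propionic acid over control, on log2(FPKM + 1), with unadjusted 95% confidence intervals, for the 9 genes (top) and the 24 other tested complement genes (bottom). The intervals of C3ar1, C7, Cd59a and Itgax exclude 0, and none of these genes passed adjustment.

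**Figure D5:**
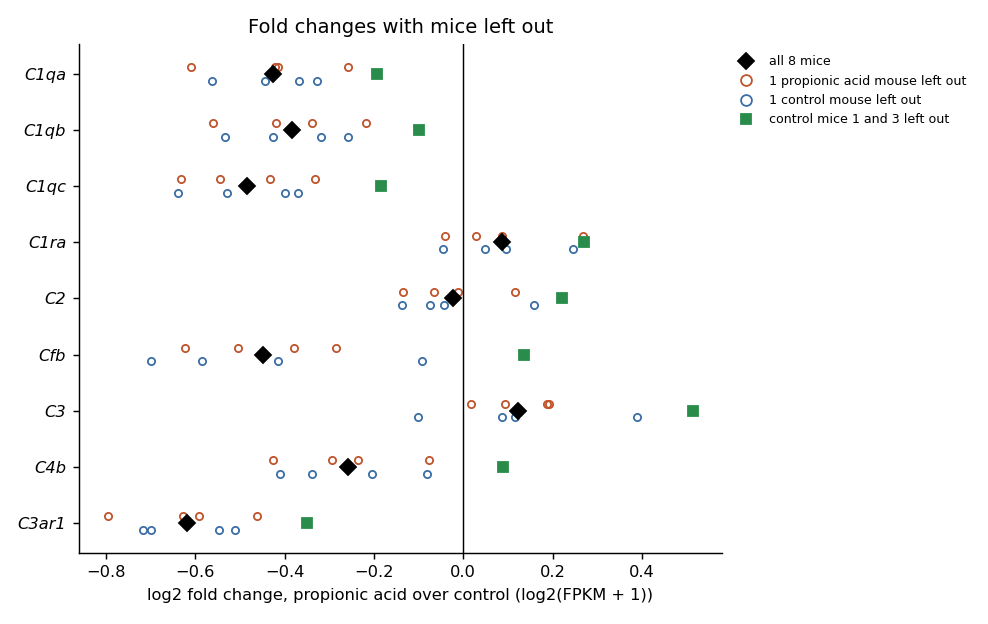
Log2 fold change of propionic acid over control for the 9 genes (x axis, log2(FPKM + 1) scale) with all 8 mice, with 1 mouse left out, and with control mice 1 and 3 left out. The C1q genes and C3ar1 stay below 0 in each case, while C2, Cfb and C4b lie above 0 without control mice 1 and 3.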

How the data were processed

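RNA of 8 skin lesions, 4 given propionic acid and 4 a control application after MC903, was extracted with TRIzol and made into VAHTS Universal V6 libraries, per the labels' protocols. The authors deposited 1 table of FPKM values, 1 column per library, per the file headers. Genome build mm10 and the tools CASAVA, cutadapt and HISAT2 2.1.0 are named in the submitters' processing notes. For the read counter, its strand option and the gene models, nothing is given in the sources used here. Whole reads were recovered from the FPKM steps with a tolerance of 0.01 of a read for 99.99% of genes and for all 12598 tested genes.

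Genes with 1 FPKM or more in at least 4 libraries were fitted as log2(FPKM + 1) with limma 3.58.1 in R 4.3.3 (intensity trend, robust moderation, a single group term, 2-sided tests, Benjamini-Hochberg adjustment over all genes tested). Adjusted p for a gene comes from this fit, with a threshold of 0.05. Fold changes on this scale understate those of low genes. The limma step was tested on simulated data. The ratios and correlations were tested with exact permutation tests. The members, lists, motifs and tests were chosen with earlier results of these data known. Beside the 9 members, the rule named the 3 highest genes of each pathway list, those with an unadjusted p under 0.05, 2 near copies of members (C1rb and C4a), and the 5 genes most like C1q, C3 and Cfb. Symbols not in the table (C4a, Mbl1, Mbl2, C8a, Trac and Fgb) are not analysed here, and 1 macrophage marker of the list is not reported here. Positions are those of GENCODE vM21 on GRCm38, the same assembly as mm10. Alternatives were another pseudocount, no filter, 2 other scalings, library weights, plain moderation, voom on the recovered reads, a replicate block and libraries left out. The labels give no batch.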

Additional observations from a re-analysis of the deposited data

Results flagged for a closer look

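In 2 genes, 1 mouse lay far from the others of its group, out of 66 groups of 4 values checked, of which chance marks about 5%. These 2 are no more than that share. C1rb, the close copy of C1ra, had 2.42 FPKM (205 reads) in control replicate 4 and 0.0920 to 0.230 FPKM in the other 3 controls, while the 4 propionic acid mice had 0.0588 to 0.150 FPKM. C1ra in control replicate 4 was the lowest of the controls, at 27.9 FPKM (3018 reads, against 5765 in control replicate 1, the highest). Whether reads were split between the 2 genes was not tested. C7 had 2.67 FPKM in propionic acid replicate 3 and 1.10 to 1.37 FPKM in the other 3 propionic acid mice.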

How the results depend on the processing

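In all 17 alternatives 0 members passed an adjusted p of 0.05 (lowest 0.235, for C3ar1 with weights per library), and 145 of 153 member values kept their direction. The 8 that turned all did so with libraries left out. No filter, plain moderation and the replicate block leave the log2 fold change itself unchanged, so the direction could not turn there. The pooled count therefore does not measure stability between mice. Without both control libraries 1 and 3, C2 (0.221), Cfb (0.135), C4b (0.09) and the C1qa over C1qc ratio (-0.007) turned direction. With 1 mouse left out, the log2 fold change ran from -0.045 to 0.269 for C1ra, -0.136 to 0.159 for C2 and -0.102 to 0.39 for C3. The genes past the threshold were 1 with weights per library and 0 to 2 with 1 mouse left out. Genes with an unadjusted p under 0.05 numbered 792, and 1351 with no filter (more genes tested), 1916 with weights, 505 without control libraries 1 and 3 and 442 to 1238 with 1 mouse left out. The pathway count was 1 to 4 with 1 mouse left out and 2 without control libraries 1 and 3. The correlated pairs numbered 4 to 19 with 1 mouse left out and 5 without control libraries 1 and 3, both chosen after seeing the data. The causes were not tested. Same-numbered libraries did not deviate together (r = -0.32, -0.08, 0.20 and -0.12). The labels do not say whether the numbers pair mice, and these values cannot settle it, since paired mice need not deviate together. With the replicate block, 700 genes had an unadjusted p under 0.05, 431 of them higher, and C3ar1 had an adjusted p of 0.507. With median-of-ratios scaling 418 genes were higher and 370 lower, against 513 and 279.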

Other observations

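The other marker lists are given as values. Of 6 fibroblast markers, 4 had a negative log2 fold change, with a summed level of 1960 to 3244 FPKM with propionic acid and 1707 to 3764 FPKM in controls. Of 6 keratinocyte markers, 4 had a negative log2 fold change, with a summed level of 5818 to 8785 FPKM with propionic acid and 6003 to 8431 FPKM in controls. The median log2 fold change was -0.17 over 4 tested neutrophil markers, -0.01 over 4 T cell markers, -0.12 over 5 mast cell markers, and 0.01 over 5 endothelial markers. The 6 skeletal muscle markers had a median of 0.05 but went both ways, 3 with a negative and 3 with a positive log2 fold change. Myh4 had 223 ± 110.5 FPKM with propionic acid and 24.7 ± 18.1 FPKM in controls (log2 fold change 3.26, limma adjusted p = 0.0998), Ckm had 975.3 ± 362 FPKM with propionic acid and 476.5 ± 115 FPKM in controls (0.99, adjusted p = 0.488), and Myh1 had 139.5 ± 90.3 FPKM with propionic acid and 417 ± 118 FPKM in controls (-1.75, adjusted p = 0.392; SD, n = 4 each). In these 3 the groups did not overlap, against 1.1% of all genes in the lower and 2.06% in the higher direction, and they were named after their values were seen. Of the B and plasma cell markers 1 was tested, Jchain, at -0.58. None of these passed an adjusted p of 0.05 in limma.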
